A study of Homo sapiens with 12 samples.

Results

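The genes examined here were 8 that are widely used as readouts of STAT5 activity or stand beside it: the PIM kinases PIM1, PIM2 and PIM3, the feedback inhibitors CISH, SOCS1, SOCS2 and SOCS3, and the cytokine gene OSM. They were taken by symbol, and all 8 were found among the 19447 gene symbols of the count table. Messenger RNA had been sequenced in 12 libraries, with 3 libraries in each of 4 groups. K562, a human leukemia line with the BCR-ABL fusion kinase, was the untreated group, and K562+L was the same line with lycorine, an alkaloid of Amaryllidaceae plants, at 6 µM. K562/IM was the line that the study derived from K562 by stepwise exposure to the BCR-ABL inhibitor imatinib (IM) and maintained in 5 µM of it, and K562/IM+L was that line with 6 µM lycorine. Every group thus came from the BCR-ABL-positive K562 line. The sources used here give neither the time of lycorine exposure before sequencing nor whether imatinib was in the medium at harvest. The sample labels call the last group G2 while the study's drawings of it use G6, so its members are written as the libraries labelled K562/IM+L, and each direction drawn from them rests on that label. Nothing in the labels says that the 3 libraries of a group came from separate cultures, so the p-values measure the spread between these libraries, which may be technical.

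STAT5A and STAT5B are transcription factors that kinases switch on by phosphorylating a tyrosine, upon which they pair, enter the nucleus and bind palindromic DNA sites. In chronic myeloid leukemia cells BCR-ABL keeps STAT5 phosphorylated without a cytokine, and imatinib removes that signal. Among the genes STAT5 turns on are the PIM serine/threonine kinases, which favour survival and protein synthesis, and the CIS/SOCS proteins, which bind activated receptors or Janus kinases (JAKs) through an SH2 domain and recruit a ubiquitin ligase through a SOCS box, and so restrain the pathway. OSM encodes oncostatin M, a cytokine of the interleukin 6 family whose gene is also induced through STAT5 in blood cells.

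Promoter sequence was available for 6 of the 8 genes, as RefSeq windows of 300 bases on GRCh38.p14 that run from 250 bases before the start of transcription to 50 bases after it. They were searched for the core STAT5 motif TTCNNNGAA, which reads the same on both strands, so that a single search covers both and no match overlapped another in CISH. At least 1 match was present in 7.66% of all 35116 windows. The 250 bases before the start are shown for 3 genes that moved in different ways: CISH (chr3:50611775-50612024, minus strand), which has the motif, and PIM2 (chrX:48919025-48919274, minus strand) and SOCS1 (chr16:11256205-11256454, minus strand), which do not. Capitals mark matches to the motif.
CISH: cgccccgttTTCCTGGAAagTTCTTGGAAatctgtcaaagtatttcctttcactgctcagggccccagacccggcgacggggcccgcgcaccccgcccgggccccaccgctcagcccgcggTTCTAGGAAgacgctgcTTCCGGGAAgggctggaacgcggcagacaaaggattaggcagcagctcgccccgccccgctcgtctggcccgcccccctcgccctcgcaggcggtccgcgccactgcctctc
PIM2: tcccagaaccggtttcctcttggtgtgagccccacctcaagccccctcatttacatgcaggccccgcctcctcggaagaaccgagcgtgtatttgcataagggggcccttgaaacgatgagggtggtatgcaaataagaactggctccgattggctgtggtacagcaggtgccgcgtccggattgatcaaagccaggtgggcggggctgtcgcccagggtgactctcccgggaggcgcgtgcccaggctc
SOCS1: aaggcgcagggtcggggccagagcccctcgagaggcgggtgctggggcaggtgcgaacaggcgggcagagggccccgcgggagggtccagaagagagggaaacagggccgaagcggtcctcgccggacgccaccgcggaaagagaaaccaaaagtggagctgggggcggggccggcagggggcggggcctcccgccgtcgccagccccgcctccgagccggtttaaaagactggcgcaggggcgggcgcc
The CISH window held 4 matches, beginning at positions -241, -230, -129 and -112 from the start. Only 7 of the 35116 windows held 4 or more, and another of those belonged to BCL6, a repressor gene among the other STAT5 targets described further on. No match was found in the windows of PIM1, PIM2, PIM3 or SOCS1 or in either window of SOCS3, which says only that these letters are not in those windows. SOCS2 and OSM had no window here.

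The level of a gene is given as CPM, counts scaled to a common library size by TMM normalization over the 12 libraries, and as mean ± SD over 3 libraries. Differences are log2 fold changes with a standard error (SE) and a Benjamini-Hochberg adjusted p. They come from edgeR's quasi-likelihood fit to the counts over all genes that passed a filter on low counts, and a gene was called at an adjusted p under 0.05. Total counts per library ran from 75093844 to 107344598. Small counts clustered in steps of 4, as if each fragment had been counted about 4 times, and if so this makes the counting error of low genes larger than the counts alone would give. The 10 markers of the K562 line, such as GATA1 and the fetal globins, were present in all 12 libraries, and CDKN2A and CDKN2B, which K562 has deleted, summed to at most 0.108 CPM in any library. The summed level of the line markers was 6264 to 8661 CPM in K562, 4219 to 4841 in K562+L, 2856 to 3103 in K562/IM and, in the labelled group, 32639 to 45834, and all 10 were called higher in the last group than in K562/IM. Markers of other blood cells summed to 77.1 to 197 CPM, most of it LYZ, with MS4A1 at 0 in every library. CD3D was at 21.3 to 23.0 CPM in K562/IM and at 2.72 or less in the other groups. Stromal and epithelial markers summed to 52.1 to 135 CPM, most of it EPCAM, at 42.9 to 132 CPM. Whether this shift in line markers bears on the results given here was not tested. In RNA from whole cultures, fewer cells that express a gene and less of its RNA per cell cannot be told apart.

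In the libraries labelled K562/IM+L all 3 PIM kinase genes, SOCS2 and CISH were lower than in K562/IM, PIM2 by more than any other of the 8, whereas SOCS1 was higher. OSM had nearly all of its few counts there, at under 1 CPM. Calls were common in that comparison, where 66.8% of all genes tested passed in one direction or the other. Lycorine in K562 itself came with smaller differences, of which PIM2 and PIM3 passed the test in opposite directions, and K562/IM differed from K562 in PIM2 and SOCS2. The plot of levels by library shows all values.

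**Figure D1:**
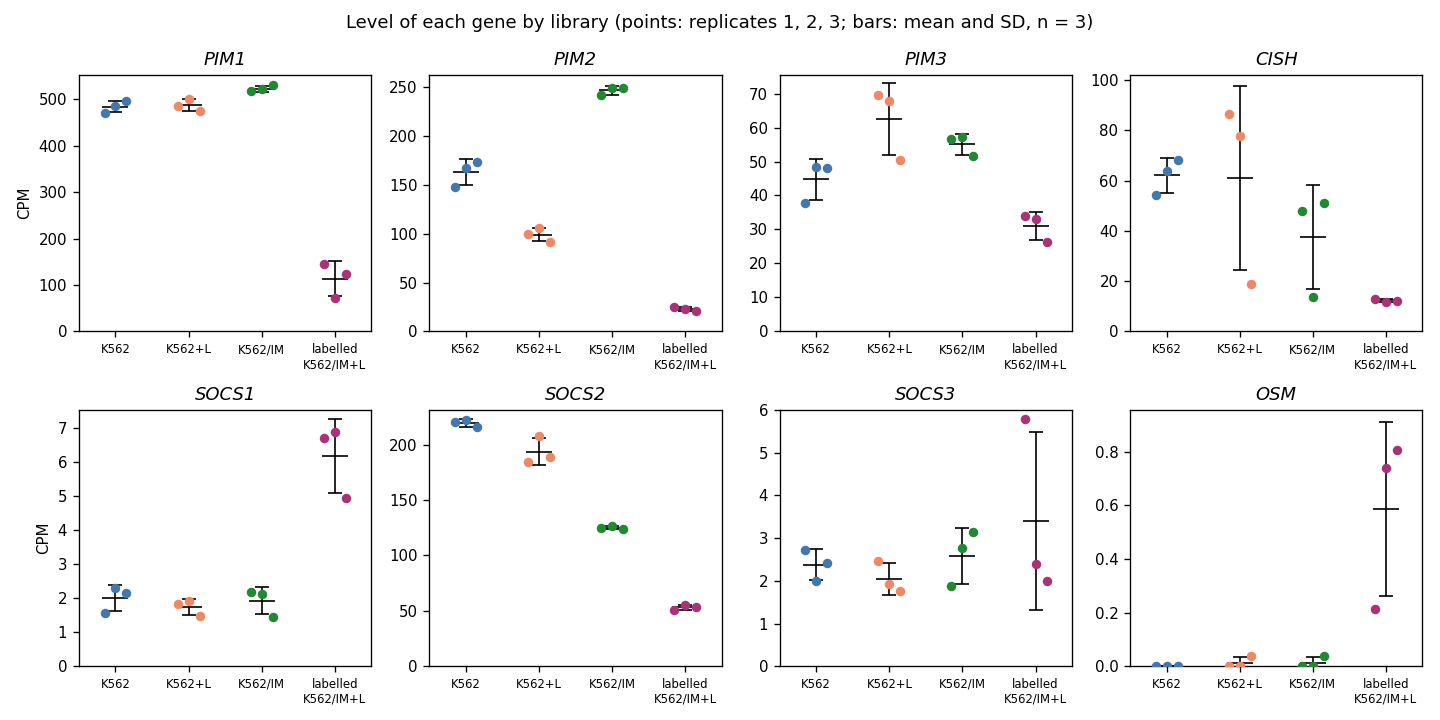
Level of each of the 8 genes in CPM (vertical axis, from 0, a separate scale for each gene) in the 12 libraries; points are replicates 1 to 3 of each group, and bars show the mean and SD of 3 libraries. For PIM1, PIM2, PIM3, SOCS2 and CISH the 3 libraries labelled K562/IM+L lie below every other library, and for SOCS1 and OSM they lie above. CISH has 1 low library in K562+L and 1 in K562/IM, the latter at 13.7 CPM, just above the labelled libraries.

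PIM2 (chrX:48913182-48919024, minus strand) encodes a PIM kinase that needs no activating phosphorylation, so that its amount sets its activity. Its 4 groups were all separate from each other, which held for 2 of the 7 members with a mean of at least 1 CPM, the other being SOCS2, and for 15.3% of all 11667 genes at that level. The K562 libraries held 148, 168 and 173 CPM, the K562+L libraries 99.9, 105 and 91.6, the K562/IM libraries 242, 249 and 249, and the libraries labelled K562/IM+L 25.5, 22.6 and 21.1. The means were 163 ± 13.1, 98.9 ± 6.91, 247 ± 4.35 and 23.1 ± 2.22 (SD, n = 3 each). The order was thus K562/IM, K562, K562+L and the labelled libraries, with no overlap between neighbours. With lycorine in K562, PIM2 fell to 0.607 times its level, a log2 fold change of -0.72 (SE 0.0971, adjusted p = 0.00160 by the quasi-likelihood test of edgeR). It was 1.51 times higher in K562/IM than in K562, with a log2 fold change of 0.60 (SE 0.0785, adjusted p = 4.7e-04 from the same test). In the labelled libraries it was at 0.0952 times its K562/IM level, a log2 fold change of -3.39 (SE 0.0895, adjusted p = 2.9e-07 from the same test).

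PIM1 (chr6:37170203-37175426, plus strand), which encodes the founding PIM kinase and a partner of MYC in lymphoma models, was level across 3 groups and low in the last. It was at 471, 485 and 496 CPM in the K562 libraries, 486, 500.4 and 475 in K562+L, 517, 521 and 530 in K562/IM, and 145, 71.5 and 124 in the libraries labelled K562/IM+L. K562 and K562+L overlapped, with a log2 fold change of 0.0079 (SE 0.0687, adjusted p = 0.940 by the quasi-likelihood test of edgeR). K562/IM lay just above both without overlap, yet its difference from K562 was not called, with a log2 fold change of 0.11 (SE 0.0587, adjusted p = 0.144). The labelled libraries were at 0.221 times the K562/IM mean, a log2 fold change of -2.18 (SE 0.238, adjusted p = 1.4e-04), and their own spread was the widest of the PIM1 groups, the highest library being 2.03 times the lowest.

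PIM3 (chr22:49960513-49964080, plus strand) encodes the PIM kinase best known from solid tumours. Its K562 libraries held 37.8, 48.4 and 48.2 CPM, its K562+L libraries 69.5, 67.9 and 50.4, its K562/IM libraries 56.6, 57.2 and 51.5, and the libraries labelled K562/IM+L 33.8, 33.2 and 26.4. The K562+L libraries lay above K562 without overlap and overlapped K562/IM. The rise with lycorine in K562 was 1.40-fold, a log2 fold change of 0.48 (SE 0.152, adjusted p = 0.0388 by the quasi-likelihood test of edgeR), and it passed the test in only 1 of the 6 fits that each left out a library, the one without K562+L replicate 3. Against K562/IM the labelled libraries were at 0.575 times the level, a log2 fold change of -0.80 (SE 0.107, adjusted p = 4.0e-04). PIM3 was therefore called higher with lycorine in K562 and lower in the labelled libraries against K562/IM. The K562/IM libraries were all above K562, but the log2 fold change of 0.30 (SE 0.111) just missed the threshold at an adjusted p = 0.0506.

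SOCS2 (chr12:93569814-93583487, plus strand) encodes a SOCS protein known for limiting growth hormone signaling and for its high level in chronic myeloid leukemia progenitors. It stepped down from group to group. The K562 libraries held 221, 223 and 216 CPM, the K562+L libraries 185, 208 and 189, the K562/IM libraries 125, 127 and 124, and the libraries labelled K562/IM+L 50.9, 55.5 and 53.7. No group overlapped the next. The fall from K562 to K562/IM was to 0.570 times the level, a log2 fold change of -0.81 (SE 0.0624, adjusted p = 3.4e-05 by the quasi-likelihood test of edgeR). From K562/IM to the labelled libraries SOCS2 dropped to 0.434 times its level, a log2 fold change of -1.20 (SE 0.0650, adjusted p = 4.8e-06). The lower values of K562+L were not called against K562, with a log2 fold change of -0.18 (SE 0.0802, adjusted p = 0.107). In the annotation 240 exon bases of SOCS2 are shared with SOCS2-AS1 on the other strand, and whether counting used strand is not given in the sources used here.

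CISH (chr3:50606490-50611831, minus strand), the gene with the motif-rich promoter shown above, encodes CIS, the first described inhibitor of this family, which competes with STAT5 for its docking sites on receptors. Its libraries fell at 2 levels within groups. K562 held 54.3, 63.9 and 68.0 CPM, and K562+L held 86.5 and 77.8 in replicates 1 and 2 but 18.9 in replicate 3. K562/IM held 47.8 and 51.0 in replicates 1 and 3 but 13.7 in replicate 2, while the labelled group was at 13.1, 11.8 and 12.3. The 2 low libraries thus lay near the labelled group rather than near their own replicates, and the highest K562+L library was 4.58 times the lowest.

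Because of that spread the tests of CISH depended on single libraries. Between K562+L and K562 the log2 fold change was -0.025 (SE 0.459, adjusted p = 0.972 by the quasi-likelihood test of edgeR), and without K562+L replicate 3 it was 0.40 (SE 0.129, adjusted p = 0.0582). K562/IM lay below K562 with no overlap, but with a log2 fold change of -0.73 (SE 0.417) it was not called (adjusted p = 0.171). The labelled libraries were at 0.336 times the K562/IM mean, a log2 fold change of -1.57 (SE 0.435, adjusted p = 0.0140), which was lost without K562/IM replicate 3 (-1.29, adjusted p = 0.0539). Against K562, where no library stood apart, CISH in the labelled libraries was at 0.197 times the level, a log2 fold change of -2.35 (SE 0.115, adjusted p = 1.1e-05).

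Splits of more than 2-fold between replicates were uncommon, and the share of genes with splits as wide as those of CISH was not counted. Of 9330 genes with a mean of at least 10 CPM, 4.49% had a highest library over 2 times the lowest in any group. The gene whose deviations from its group means were most like those of CISH, among 11666 genes and over the 12 libraries, was TFE3 (Pearson r = 0.997), which encodes a transcription factor of lysosome and autophagy genes and lies at chrX:49028726-49043486. TFE3 was singled out after its values were seen, and no p is given. It held 46.9 and 42.2 CPM in K562+L replicates 1 and 2 and 18.9 in replicate 3, and 66.1 and 70.5 CPM in K562/IM replicates 1 and 3 and 30.1 in replicate 2. In K562 it was at 38.5, 42.4 and 42.0, and in the labelled libraries at 30.4, 29.1 and 30.4. The same 2 libraries were therefore the low ones for both genes, and their part in the CISH results beyond the values without them was not tested.

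**Figure D2:**
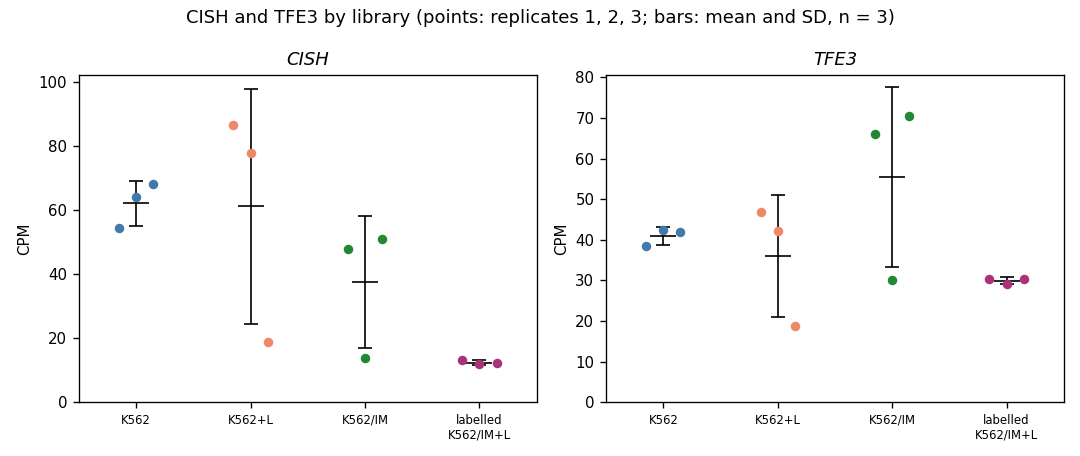
CISH and TFE3 in CPM (vertical axes, from 0) in the 12 libraries; points are replicates 1 to 3 of each group, and bars show the mean and SD of 3 libraries. In both genes replicate 3 of K562+L and replicate 2 of K562/IM lie far below the other replicates of their group, at 18.9 and 13.7 CPM for CISH and at 18.9 and 30.1 CPM for TFE3.

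SOCS1 (chr16:11254405-11256200, minus strand) encodes the most direct inhibitor of JAK kinases among the SOCS proteins and is best known as a brake on interferon signaling. It was low in 3 groups and higher in the last. K562 held 1.56, 2.30 and 2.15 CPM, K562+L 1.81, 1.92 and 1.48, and K562/IM 2.18, 2.12 and 1.46, and these 3 groups overlapped. Those labelled K562/IM+L held 6.69, 6.87 and 4.92 CPM, above every other library. The rise over K562/IM was 3.27-fold, a log2 fold change of 1.71 (SE 0.218, adjusted p = 3.2e-04 by the quasi-likelihood test of edgeR), and that over K562 was 1.60 on the log2 scale (SE 0.225, adjusted p = 8.6e-04). Lycorine in K562 (-0.21, SE 0.228, adjusted p = 0.498) and K562/IM against K562 (-0.064, SE 0.25, adjusted p = 0.844) gave no call.

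SOCS3 (chr17:78356778-78360077, minus strand), the inhibitor that acts on the shared receptor of interleukin 6 cytokines, was low throughout. Its K562 libraries held 2.71, 2.0 and 2.42 CPM, K562+L 2.47, 1.92 and 1.76, K562/IM 1.87, 2.76 and 3.14, and the libraries labelled K562/IM+L 5.79, 2.40 and 2.0. The groups overlapped in every comparison, and only replicate 1 of the labelled group stood above the rest. SOCS3 was not called anywhere, and the labelled libraries against K562/IM gave a log2 fold change of 0.41 (SE 0.418, adjusted p = 0.409 by the quasi-likelihood test of edgeR) that turned to -0.21 without that replicate.

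OSM (chr22:30262829-30266840, minus strand) had no count in the 3 K562 libraries, 4 counts in 1 K562+L and in 1 K562/IM library and 0 in the others of those groups. In those labelled K562/IM+L there were 17, 53 and 76 counts, or 0.214, 0.740 and 0.808 CPM. OSM entered the test only through that group, so that it had to differ there. Set against a floor of 3 counts per library, its mean in the labelled libraries was at least 15.8-fold higher than in K562, and at least 3.96-fold higher if the floor is 3 fragments of 4 counts. For the lowest labelled library alone these bounds were only 5.54-fold and 1.39-fold. No p is given for OSM. The level stayed under 1 CPM, and with counts divided by 4 OSM no longer passed the filter.

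Counted over the list, the 3 comparisons with K562 and the one with K562/IM gave different pictures, and they share libraries, so that they are not independent of each other. In K562+L against K562, 7 of the 8 members passed the filter, of which 1 was called higher (PIM3), where 18.2% of all genes tested were, and 1 lower (PIM2), where 19.0% were, and the members' median log2 fold change was -0.18 against 0 over all genes. Between K562/IM and K562, again with 7 tested, 1 was higher (PIM2), with 30.1% of all genes higher, and 1 lower (SOCS2), with 27.1% of all genes lower, at a median of 0.11 against 0.042. In both comparisons 1 of 7 genes in a direction is a smaller share than that of all genes. OSM, which passed the filter only through the labelled libraries, is left out of the counts that follow. Against K562/IM, 5 of the other 7 were lower in the labelled libraries (PIM1, PIM2, PIM3, CISH, SOCS2), with 33.6% of all genes lower, and SOCS1 was the 1 higher, with 33.2% of all genes higher. The median of the 7 was -1.20 against -0.007 over all genes, and 4 of the 5 lower genes, all but PIM3, changed by more than 1 on the log2 scale. Against K562 the same 5 were lower, with 27.8% of all genes lower, and SOCS1 again higher, with 28.2% of all genes higher, at a median of -2.06 against 0.02. Of these calls that of PIM3 was the least firm, with a log2 fold change of -0.54 (SE 0.147, adjusted p = 0.0163 by the quasi-likelihood test of edgeR). It was lost when the fit was blocked by replicate number (adjusted p = 0.0549), with upper-quartile normalization (adjusted p = 0.0531) and without K562 replicate 2 (adjusted p = 0.0608).

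**Figure D3:**
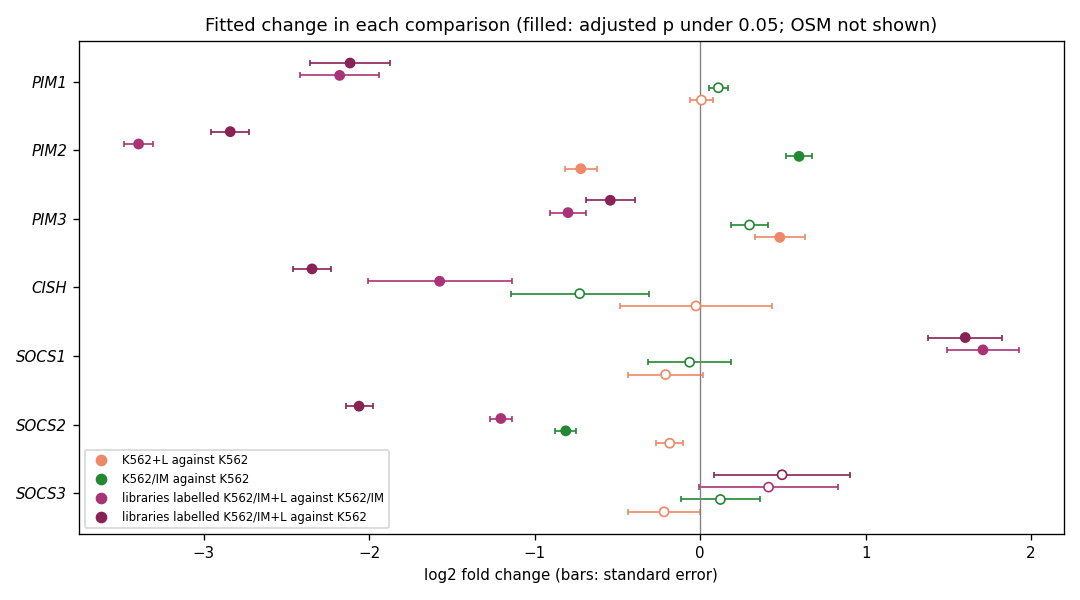
Fitted log2 fold change (horizontal axis) of 7 of the genes in the 4 comparisons of groups, with bars of 1 standard error; filled points had an adjusted p under 0.05. The labelled libraries lie between -3.39 and -2.12 for PIM1 and PIM2 and between 1.60 and 1.71 for SOCS1, while K562+L against K562 stays within 1 of 0 for all 7 genes; OSM is left out because its fitted change depends on counts of 0.

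The question of whether lycorine acted alike in the 2 lines was put as an interaction over the 12 libraries, the effect in K562/IM minus the effect in K562. With OSM again left out, 4 of 7 genes were called lower (PIM1, PIM2, PIM3, SOCS2), with 31.7% of all 13995 genes tested lower, and 1 higher (SOCS1), with 29.9% higher, and the median of the 7 was -1.30 against -0.02 over all genes. The difference of effects was -2.70 for PIM2 (SE 0.126, adjusted p = 1.3e-08 by the quasi-likelihood test of edgeR), -2.21 for PIM1 (SE 0.261, adjusted p = 2.0e-05) and -1.30 for PIM3 (SE 0.203, adjusted p = 1.7e-04). It was -1.04 for SOCS2 (SE 0.0913, adjusted p = 1.8e-06) and 1.90 for SOCS1 (SE 0.321, adjusted p = 3.1e-04). CISH was not called, at -1.57 (SE 0.724, adjusted p = 0.0791), and with both of its low libraries left out, a choice made after seeing the data, it reached -2.38 (SE 0.154, adjusted p = 2.7e-06). SOCS3 gave 0.61 (SE 0.513, adjusted p = 0.324).

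Levels of different genes can be set beside each other only per length, and were divided by the exon length in GENCODE 29 for that purpose. In CPM per kb of exon, PIM1 led in every group, at 183 ± 4.63 in K562, 184 ± 4.79 in K562+L, 197 ± 2.48 in K562/IM and 42.8 ± 14.3 in the libraries labelled K562/IM+L (SD, n = 3 each). PIM2 came next in the first 3 groups, at 78.5 ± 6.31, 47.7 ± 3.33 and 119 ± 2.10 CPM per kb. In the labelled libraries PIM2, at 11.1 ± 1.07 CPM per kb, stood below PIM3 at 13.1 ± 1.74, and the 2 overlapped. Among the inhibitors SOCS2 stood first in K562 at 35.0 ± 0.546 CPM per kb, before CISH at 27.9 ± 3.17, while SOCS1 at 1.12 ± 0.218 and SOCS3 at 0.870 ± 0.131 were far lower and overlapped. In the labelled libraries the inhibitors lay closer together, with SOCS2 at 8.50 ± 0.371, CISH at 5.56 ± 0.296, SOCS1 at 3.43 ± 0.600 and SOCS3 at 1.24 ± 0.761 CPM per kb.

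**Figure D4:**
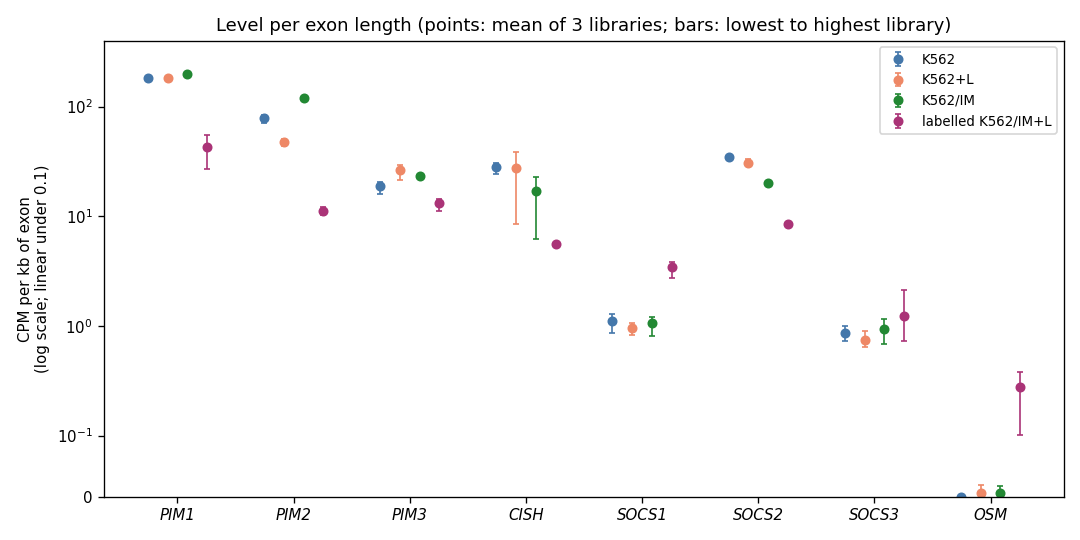
Level of each gene in CPM per kb of exon (vertical axis, logarithmic above 0.1 and linear below it) in the 4 groups; points are means of 3 libraries and bars run from the lowest to the highest library. PIM1 is highest in every group, at 183 in K562 and 42.8 in the libraries labelled K562/IM+L, and SOCS1, SOCS3 and OSM are the 3 lowest.

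Other reported STAT5 targets did not move as a block. Of 12 such genes 11 were tested, and the labelled libraries against K562/IM had 7 lower and 3 higher (CCND2, CCND3 and the survival gene BCL2), where 33.6% and 33.2% of all genes were lower and higher, at a median log2 fold change of -0.99 against -0.007 over all genes. CCND1 and CCND2, which encode cyclins that carry cells from G1 into S phase, took opposite courses. CCND1 stood at 62.6 ± 2.31 CPM in K562/IM and 2.18 ± 0.259 in the libraries labelled K562/IM+L (log2 fold change -4.82, SE 0.11, adjusted p = 1.8e-07 by the quasi-likelihood test of edgeR), whereas CCND2 stood at 0.456 ± 0.162 and 28.0 ± 1.09 (5.98, SE 0.241, adjusted p = 1.3e-06). CDKN1A, the gene of the cell cycle inhibitor p21, was at 56.3 ± 1.72 and 7.12 ± 1.20 CPM (-2.96, SE 0.126, adjusted p = 1.6e-06), and CCND3 was higher in the labelled libraries (1.08, SE 0.0804, adjusted p = 2.2e-05).

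In the other comparisons this list was also mixed. The shares of all genes higher and lower were 18.2% and 19.0% for K562+L against K562, 30.1% and 27.1% for K562/IM against K562, and 28.2% and 27.8% for the labelled libraries against K562, and the counts of this and the following lists are to be read beside them. With lycorine in K562, 3 of 11 were higher, BCL6 (1.04), CDKN1A (0.82) and MYC (0.74). In that comparison 4 were lower, CCND1 (-2.26), ID1 (-1.74), which encodes an inhibitor of differentiation, BCL2L1 (-0.35) and CCND2 (-0.33), at a median of -0.23. In K562/IM against K562, 6 were higher, among them CDKN1A (2.20) and CCND1 (1.61), and 3 lower, BCL2 (-3.58), CCND2 (-8.11) and CCND3 (-0.42), with a median of 0.53. CCND2 stood at 124 ± 6.32 CPM in K562 and at 0.456 ± 0.162 in K562/IM. Against K562 the labelled libraries had 7 lower, with CCND1 (-3.25) and CCND2 (-2.17) at the smallest p, and 1 higher, CCND3 (0.61), and the median was -0.67.

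The other brakes of JAK-STAT signaling were 17 genes: SOCS4 to SOCS7, tyrosine phosphatases, PIAS proteins, the adaptor SH2B3, the CBL ligases and the interferon brake USP18. All were tested, and in the labelled libraries against K562/IM 13 were lower and 4 higher, beside 33.6% and 33.2% of all genes, at a median of -0.68 against -0.007. SH2B3, also called LNK, which restrains JAK2, was the clearest, at 135 ± 2.27 CPM in K562/IM and 29.2 ± 5.01 in the labelled libraries (-2.19, SE 0.126, adjusted p = 6.6e-06 by the quasi-likelihood test of edgeR). USP18 was higher (1.34, SE 0.0989, adjusted p = 2.1e-05). With lycorine in K562, 6 were higher, among them SOCS7 (0.78), and only SH2B3 was lower (-1.32, SE 0.117, adjusted p = 2.9e-04), with a median of 0.054. SH2B3 was thus lower with lycorine in K562 and in the labelled libraries. In K562/IM against K562, 8 were higher, among them CBLB (1.68) and SH2B3 (0.80), and 2 lower, PTPN2 (-0.49) and USP18 (-0.62), at a median of 0.35. Against K562 the labelled libraries had 7 lower, among them SH2B3 (-1.43), and 4 higher, among them USP18 (0.67), with a median of -0.32.

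**Figure D5:**
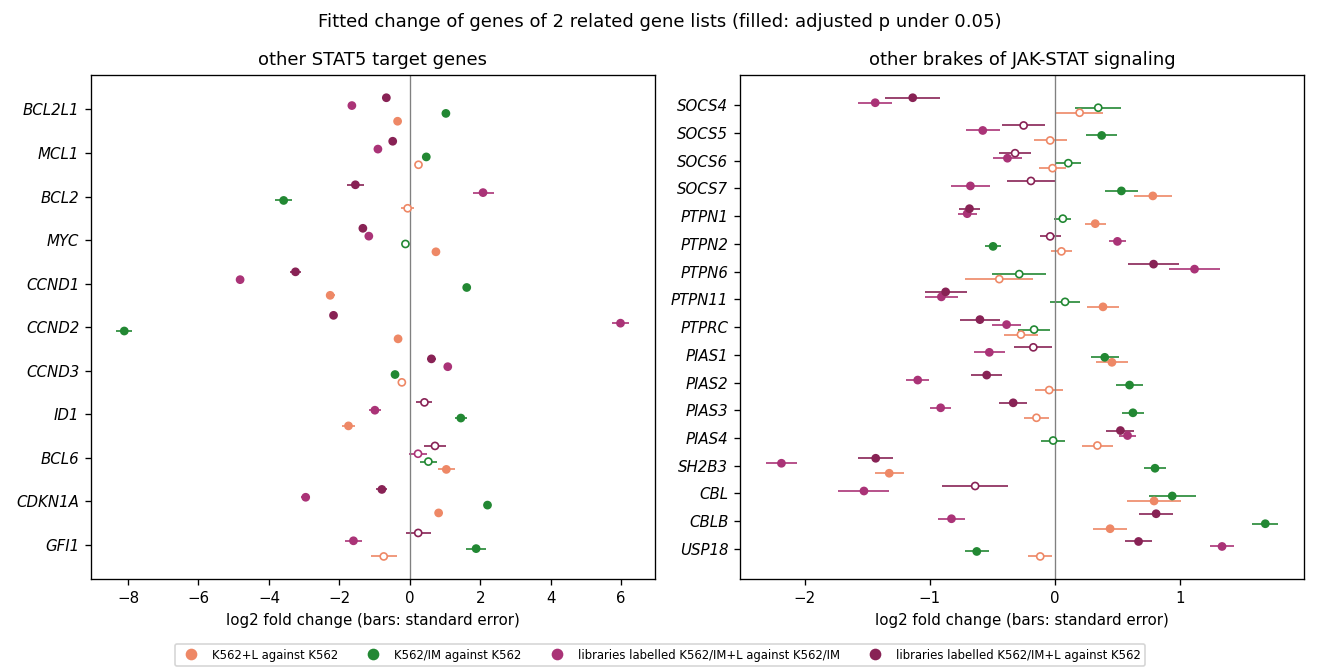
Fitted log2 fold change (horizontal axes) of 11 other STAT5 target genes (left) and 17 other brakes of JAK-STAT signaling (right) in the 4 comparisons of groups; bars are 1 standard error and filled points had an adjusted p under 0.05. CCND1 and CCND2 lie on opposite sides of 0 in the labelled libraries against K562/IM, at -4.82 and 5.98, and SH2B3 is the lowest brake in that comparison, at -2.19.

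Other lists around the pathway split as well. The list around the SOCS-box ubiquitin ligase held 6 genes, ELOB, ELOC, CUL5, CUL2, RNF7 and RBX1. Not all of them need serve the SOCS proteins. In the labelled libraries against K562/IM, 3 were higher and 1 lower, beside 33.2% and 33.6% of all genes. ELOB (1.16) and RNF7 (0.85) were among the higher, and CUL2 (-0.37) was the lower. None was higher and 4 were lower, among them ELOC (-1.06), in K562/IM against K562, and ELOC alone was lower (-0.60) with lycorine in K562. Their medians in these 3 comparisons were 0.45, -0.52 and -0.31. Of 10 genes of PIM kinase substrates, 4 were higher and 2 lower with lycorine in K562, among them FOXO3 (1.30), a transcription factor of cell death genes, and BAD (-1.17), a death promoter that PIM kinases inactivate. In the labelled libraries against K562/IM 5 were higher and 3 lower. The higher ones were BAD (0.88), AKT1S1 (0.86), CDKN1B (0.53), the gene of the inhibitor p27, FOXO3 (0.48) and EIF4B (0.41). CDKN1A was among the lower, and it is counted in the list of other STAT5 targets as well. BAD was thus lower with lycorine in K562 and higher in the labelled libraries. In K562/IM against K562 3 were higher and 2 lower. The medians of the substrates in these 3 comparisons were -0.009, 0.29 and -0.006, beside 0, -0.007 and 0.042 over all genes.

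Upstream of these genes, the input list held BCR, ABL1, the JAKs, STATs and the receptors that feed STAT5, 20 in all. With lycorine in K562, 3 of the 14 tested were called higher and 5 lower. Among the higher were BCR (1.02, SE 0.213, adjusted p = 0.00859 by the quasi-likelihood test of edgeR) and ABL1 (0.32, SE 0.0803, adjusted p = 0.0170). BCR was spread within K562, at 127, 77.3 and 72.4 CPM. Counts per gene symbol do not separate the BCR-ABL fusion from the unfused genes. STAT5A stood at 444 ± 27.4 CPM in K562, 251 ± 13.7 in K562+L, 435 ± 21.8 in K562/IM and 241 ± 8.39 in the libraries labelled K562/IM+L (SD, n = 3 each). It was lower with lycorine in K562 (-0.83, SE 0.0834, adjusted p = 5.3e-04 by the quasi-likelihood test of edgeR) and in the labelled libraries against K562/IM (-0.83, SE 0.0692, adjusted p = 3.8e-05). STAT5B was lower with lycorine in K562 as well (-0.29, SE 0.0885, adjusted p = 0.0344 from the same test). It went the other way in the labelled libraries, at 298 ± 8.84 CPM in K562/IM and 389 ± 25.4 there (0.41, SE 0.0742, adjusted p = 0.00185). STAT5A and PIM2 were thus both called lower in those 2 comparisons, where 19.0% and 33.6% of all genes were lower. The share of all genes lower in both was not counted. In K562/IM against K562 PIM2 was higher and STAT5A was not called (-0.031, SE 0.0739, adjusted p = 0.744). A link between STAT5A and PIM2 was not tested.

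Of the receptors in that list, EPOR, which binds erythropoietin, was at 19.8 ± 0.511 CPM in K562/IM and 140 ± 8.27 in the libraries labelled K562/IM+L (2.85, SE 0.0741, adjusted p = 2.9e-07 by the quasi-likelihood test of edgeR), and KIT, the stem cell factor receptor, at 15.9 ± 0.544 and 1.63 ± 0.436 (-3.25, SE 0.201, adjusted p = 9.1e-06). Over the tested genes of the list, 3 were higher and 5 lower of 14 for K562+L against K562, 5 and 1 of 15 for K562/IM against K562, 4 and 5 of 15 for the labelled libraries against K562/IM, and 5 and 2 of 14 for them against K562. CSF2RB passed the filter only through K562/IM, and JAK3 passed against K562 only through the other group. Their direction there was fixed by the filter, which limits the reading of these counts beside the shares of all genes. The medians were -0.23, 0.11, -0.054 and 0.042 in that order.

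OSMR, the receptor chain that binds oncostatin M, was high in K562/IM and low in the 3 libraries where OSM was best detected. It was at 5.68 ± 1.18 CPM in K562, 7.76 ± 0.993 in K562+L, 24.9 ± 0.359 in K562/IM and 5.0 ± 0.438 in the libraries labelled K562/IM+L. OSMR rose from K562 to K562/IM (2.13, SE 0.149, adjusted p = 2.0e-05 by the quasi-likelihood test of edgeR) and fell from there to the labelled libraries (-2.29, SE 0.102, adjusted p = 2.0e-06). Of the 9 other ligands and receptors of the interleukin 6 family, 6 of 8 tested were higher in K562/IM than in K562, with CTF1 (1.03) beside OSMR at the smallest p, and none was lower, where 30.1% of all genes were higher and 27.1% lower. Of those 6, LIF and IL6R averaged 0.033 and 0.032 CPM in K562 and passed the filter only through K562/IM. They could therefore only be higher, and the count and median that hold them are not to be set against all genes. In the labelled libraries 4 of 8 were lower and 1 higher than in K562/IM, beside 33.6% and 33.2% of all genes, and 2 of 7 were higher than in K562. LIF was again tested only through K562/IM in the first of these comparisons. IL6R was tested only through the labelled libraries in the second, where it could only be higher. With lycorine in K562, 1 of 6 was lower, CTF1 (-1.02). The medians were 1.56 for K562/IM against K562, -1.23 for the labelled libraries against K562/IM, 0.20 for K562+L against K562 and 0.27 for the labelled libraries against K562.

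The genes whose pattern over the 12 libraries was most like that of each member were found by Pearson's r of log2(CPM + 1), as a description in which the 4 groups set most of the likeness. They were ERLIN1 (0.982) and ESYT1 (0.979) for PIM1, ALDH9A1 and NIBAN2 (0.996 each) for PIM2, KRT8 (0.977) and MAP7D1 (0.971) for PIM3, SRSF2 (0.995) and HSP90AB1 (0.994) for SOCS2, and ZDHHC12 (0.992) and SLC66A2 (0.988) for SOCS1. The closest genes were less alike for CISH, DVL1 (0.901) and DGKZ (0.899), and for SOCS3, OSR2 (0.785) and NICN1 (0.766). None of the pairs named for one member was a member itself.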

How the data were processed

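Poly(A)-enriched RNA from the 12 cell line libraries was sequenced by a company. The authors deposited whole-number counts per gene symbol, without normalization. The submitters' notes name FastQC, STAR, StringTie, DESeq2 and the build hg38, with no versions or roles; the annotation and the use of strand are not given in the sources used here. Total counts were 75093844 to 107344598 (median 87629216). Among the 23289 table entries from 1 to 25, 67.9% equalled a multiple of 4 or exceeded one by 1, a set that holds 52.0% of the integers up to 25.

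Libraries were grouped by the treatment in the labels. R 4.3.3, edgeR 4.0.16, limma 3.58.1 and DESeq2 1.42.0 were used. Each of 4 comparisons was fitted on its 6 libraries, and the interaction on all 12, with filterByExpr (minimum count 10), TMM and edgeR's quasi-likelihood test, with p adjusted by Benjamini-Hochberg over all genes tested. The standard error is the log2 fold change divided by the root of F. The code was tested on simulated counts with 200 changed genes. Positions and exon lengths are from GENCODE 29 (GRCh38), which matched 19029 symbols, and promoters from RefSeq (GRCh38.p14).

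The members and lists were chosen with earlier results of these data known. All members were named, with the 2 genes most like each member. From each other list, per comparison and direction, the 2 called genes with the lowest p without overlap of libraries were selected. Not all of those selected are given in the text. TFE3, the promoters shown and further genes that complete a count of 5 or fewer were chosen after their values were seen. So were genes named for passing the filter through a single group. Alternatives covered the tool, scaling, filter, fold threshold, replicate block, counts divided by 4, a fit of all libraries and each library left out. Whether the replicate numbers pair the libraries is not known, and the main fits did not pair them. Deviations were correlated above 0.1 in 4 of 18 same-numbered pairs (range -0.595 to 0.435). This cannot decide it, since differently numbered libraries reached 0.595 (K562 replicate 1 with labelled replicate 3).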

Additional observations from a re-analysis of the deposited data

Results flagged for a closer look

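In the interaction test over 12 libraries, with Benjamini-Hochberg adjustment in edgeR, 5 of the 7 genes other than OSM were called. For these the fitted effect of lycorine, as labelled, differed between the 2 lines. Differences were common in this test, at 61.7% of all genes, so that the count says little about these genes in particular. The difference of log2 effects, K562/IM minus K562, was -2.70 for PIM2 (adjusted p = 1.3e-08), -2.21 for PIM1 (adjusted p = 2.0e-05), -1.30 for PIM3 (adjusted p = 1.7e-04), -1.04 for SOCS2 (adjusted p = 1.8e-06) and 1.90 for SOCS1 (adjusted p = 3.1e-04). Each value rests on the label of the K562/IM+L group. That group was also higher than K562/IM in all 10 line markers, and whether this bears on the values was not tested.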

How the results depend on the processing

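Of 81 counts of members called under the alternatives, OSM included where tested, 72 were within 1.5 times the reported count. Between K562+L and K562 the count of 2 was 1 with upper-quartile normalization, 1 with the replicate number as a block and 1 to 2 over the fits that each left out a library. In those fits PIM3 kept its call only without K562+L replicate 3 (adjusted p from 0.0191 to 0.139 over all of them). It was 0 with a log2 fold change over 1 required as well, as it was for K562/IM against K562. The block changed 1 other call, PIM3 in the labelled libraries against K562 (adjusted p = 0.0549), which was also lost with upper-quartile normalization (adjusted p = 0.0531) and without K562 replicate 2 (adjusted p = 0.0608). PIM3 in K562/IM against K562 was gained with upper-quartile normalization (adjusted p = 0.0307), a filter of 10 counts in every library (0.0402), counts divided by 4 (0.0420) and without K562 replicate 3 (0.0435), and SOCS2 in K562+L with all 12 libraries in 1 fit (0.0407). CISH in the interaction was gained without K562+L replicate 3 (0.00837) and without K562/IM replicate 2 (0.0172).

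Of 612 log2 fold changes of members under the alternatives, 11 turned their sign, none of which had been called. In K562+L against K562, PIM1 was -0.0365 with upper-quartile normalization. The fits that each left out a library gave -0.0209 to 0.0271 for PIM1 and -0.3629 to 0.4042 for CISH there. In K562/IM against K562 they gave -0.2479 to 0.1038 for SOCS1 and -0.0376 to 0.3093 for SOCS3. SOCS3 ran from -0.2102 to 0.6905 in the labelled libraries against K562/IM, from -0.1432 to 0.7731 against K562 and from -0.0175 to 0.8816 in the interaction, the lowest each time without replicate 1 of the labelled libraries. The causes were not tested. Depth limits OSM, at 76 counts or fewer in any library, and SOCS1 and SOCS3 less so.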
